A study of Mus musculus with 2 samples.

Results

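The genes described are 10 components of the mouse miRNA machinery, chosen by symbol from the 22609 gene rows of the count tables: the Argonautes Eif2c1, Eif2c2, Eif2c3 and Eif2c4 (now named Ago1, Ago2, Ago3 and Ago4), Dicer1, Dgcr8, Xpo5, Tnrc6a, Tnrc6b and Tnrc6c. All 10 had at least 20 counts over both libraries, as did 12186 genes in all, which are called the genes tested. The libraries hold RNA recovered with an Ago2 antibody from TM4 cells, an established line of mouse Sertoli cells, 48 h after transfection with a miR-471-5p mimic (1 library) or with scramble RNA (1 library). The comparison was made in the study to find mRNAs that miR-471-5p brings to Ago2. Each condition has 1 library, so no difference has a replicate check and no p-value is given. RNA from before the pull-down was not analysed here, so the level of an mRNA in the cells and its recovery with Ago2 cannot be told apart, and neither can fewer cells carrying an mRNA and less of it per cell.

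miRNAs are cut from their primary transcripts in the nucleus by Drosha with its RNA-binding partner Dgcr8, exported by Xpo5 (exportin-5), and cut again in the cytoplasm by Dicer1. The short RNA is then held by an Argonaute protein, and Tnrc6 proteins (the GW182 family) link the Argonaute to enzymes that shorten and decap the bound mRNA. Ago2 is the Argonaute best known for cutting its target itself. Several of these genes are known miRNA targets, Dicer1 among them, through let-7 and miR-103. In Sertoli cells Dicer1 is known to be needed for sperm production.

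The sequences below show which members carry letters that pair with the transfected miRNA and with 2 miRNAs known to act on Dicer1. The mature miRNAs are from RefSeq (GRCm38.p6), 5′ to 3′, with the seed (bases 2 to 8) in capitals. miR-471-5p lies at chrX:66792634-66792655 on the minus strand and let-7a-5p at chr13:48538239-48538260 on the minus strand. miR-103-3p is given by Mir103-1, chr11:35782447-35782469 on the plus strand.
miR-471-5p: uACGUAGUauagugcuuuucac
let-7a-5p: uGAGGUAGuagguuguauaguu
miR-103-3p: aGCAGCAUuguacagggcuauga

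The mRNA letters that pair with the miR-471-5p seed are ACTACGT. In the longest annotated 3′-UTR (GENCODE M21, GRCm38, mRNA strand) they were found in 1 of the 10 members, Tnrc6a, and in 183 of the 11756 tested genes with a 3′-UTR, or 1.56%. They were in the coding region of 0 of the 10 members, against 4.34% of 11772 genes. The Tnrc6a match starts at base 994 of a 2345-base 3′-UTR, in exon 24 of 24, and is followed by A. The shorter match CTACGT (bases 2 to 7) occurs in the coding regions of Eif2c2 and Eif2c4, at bases 2370 and 2373, in exon 18 of 19 and exon 17 of 18. It is also in that of Tnrc6a, and in the coding region of 16.3% of the genes. These are shown because Eif2c2 and Eif2c4 carry it at a like place. In the 3′-UTR it was found in Eif2c3 (at base 9673 of 12742), Dicer1, Tnrc6a and Tnrc6c, and in 6.77% of the genes. The matched bases are in capitals, and the coordinates are those of the capitals, here and for let-7.
Tnrc6a 3′-UTR, chr7:123193945-123193951 plus strand: tagcactgatACTACGTattgctctgt
Eif2c2 coding region, chr15:73107264-73107269 minus strand: tgtgtcacacCTACGTgcgctgcaca
Eif2c4 coding region, chr4:126496848-126496853 minus strand: tctgtcacacCTACGTgaggtgcaca

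The let-7 match CTACCTC was found 4 times in the coding region of Dicer1 and 3 times in the 3′-UTR of Eif2c2. These are shown as the members with the most let-7 matches. Only 5 of 11772 genes, or 0.0425%, had at least 4 in the coding region, Dicer1 included. The coding region of Dicer1, 5718 bases, is the longest of the 10 members, and genes of like coding length were not set apart. In the 3′-UTR 24 of 11756 genes, or 0.204%, had at least 3. The 3′-UTR of Eif2c2 is long, 11064 bases against a median of 1205 over the genes tested. Of the 39 genes with a 3′-UTR of at least 10000 bases, 56.4% had a let-7 match and 4 had at least 3, Eif2c2 included. The last 2 sites of Eif2c2 lie past the end of that gene in RefSeq, which is 5781 bases shorter. The miR-103-3p match ATGCTGC was in the 3′-UTR of 8 of the 10 members, all but Xpo5 and Tnrc6a, against 13.3% of the genes. The 3′-UTRs of the members, of 1327 to 12742 bases, were all longer than the median of the genes tested. Both matches of Eif2c2 to miR-103-3p, at bases 10034 and 10459, also lie past its RefSeq end. A match is a description of letters, and binding at these places was not measured.
Dicer1 coding region, exon 16 of 27, chr12:104706560-104706566 minus strand: ctactgtgttCTACCTCttaatgttgt
Dicer1 coding region, exon 21, chr12:104702805-104702811 minus strand: gtacaaccaaCTACCTCatatcccatt
Dicer1 coding region, exon 21, chr12:104702697-104702703 minus strand: gctaacacatCTACCTCagatggaagc
Dicer1 coding region, exon 24, chr12:104694697-104694703 minus strand: cgattttggaCTACCTCataaccaagc
Eif2c2 3′-UTR, exon 19 of 19, chr15:73101725-73101731 minus strand: tgcataaaagCTACCTCtgacttctca
Eif2c2 3′-UTR, exon 19, chr15:73100041-73100047 minus strand: ggcctctgtcCTACCTCcaggcactgg
Eif2c2 3′-UTR, exon 19, chr15:73097983-73097989 minus strand: caatgtggatCTACCTCagttaaacag

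The mimic library had 18628310 reads on genes and the scramble library 18717225. Values are counts per 1000000 of these reads (CPM), and 3 reads, taken as the smallest amount told from 0, correspond to 0.161 and 0.16 CPM. Log2 ratios are of mimic to scramble CPM, and the 95% interval beside each comes from the exact Clopper-Pearson limits of how a gene's reads split between the libraries. It covers counting error only, as PCR copies are not independent molecules. Markers of the labelled cell type were read first. Of 14 Sertoli markers, 8 had at least 20 counts, among them Sox9 with 65.9 CPM in the mimic and 57.2 in the scramble library, while Fshr, the receptor for follicle-stimulating hormone, was at 0 in both. Germ cell markers summed to 6.82 and 7.59 CPM and Leydig markers to 4.51 and 4.70. The 4 markers of peritubular myoid cells summed to 3924 and 5439 CPM, nearly all from Acta2, with Myh11 and Des near 0. The part of these differences in the results below was not tested. The Mir471 row was at 0 in both libraries, which allows up to 0.161 CPM, and such libraries are not made to capture a mature miRNA.

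Of the 10 members, 2 were lower in the mimic library by at least 2-fold (a log2 ratio of -1 or less), Eif2c2 and Eif2c3, and 0 were higher by that much. Over the genes tested 2.91% were lower and 4.19% higher by at least 2-fold, 7.11% in all. The other 8 members had log2 ratios between -0.45 and 0.19. The interval lay below 0 in 8 members and above 0 in 2, Eif2c4 and Tnrc6a, so it left out 0 in all 10. Of the genes tested 31.9% had an interval below 0 and 32.4% above, 64.3% in all. The median log2 ratio of the members was -0.31, and that of all genes tested was 0.01. After a fit on transcript length and GC content the members' median was 0.06, with 4 of the 10 below 0, and that of all genes was -0.02.

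**Figure D1:**
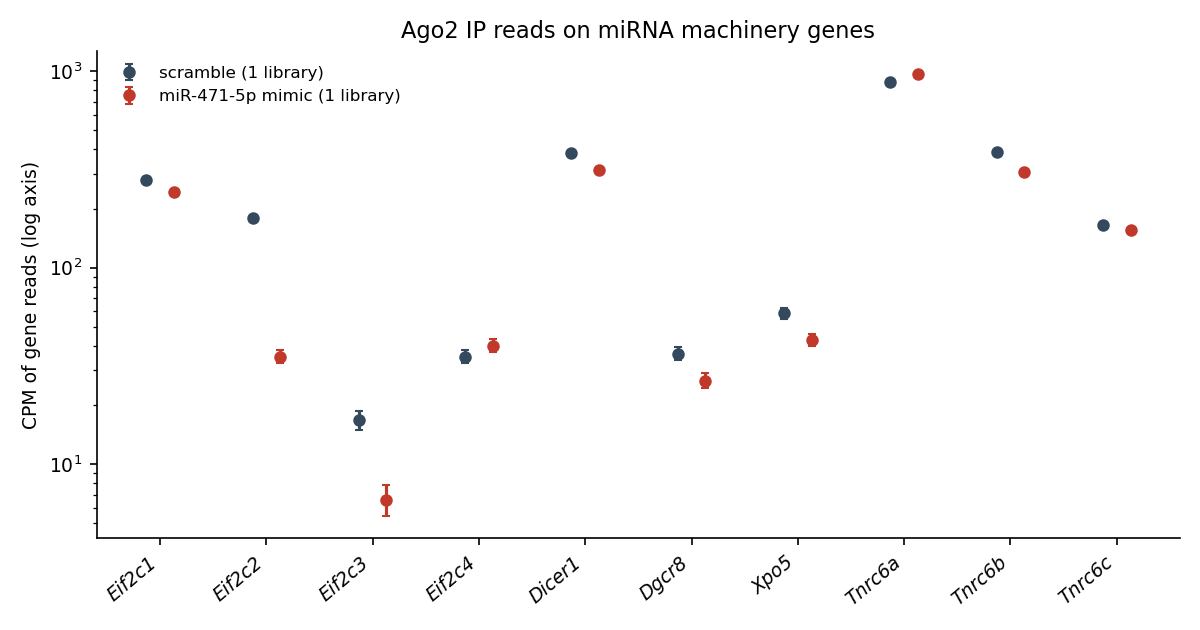
CPM (log axis) of each member in the scramble library (dark points) and the miR-471-5p mimic library (red points), 1 library each, with exact Poisson 95% intervals that cover counting error only. Eif2c2 is at 178 CPM in the scramble and 35.3 in the mimic library, Eif2c3 at 16.7 and 6.55, and Tnrc6a stands highest in both libraries.

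Eif2c2, which encodes the protein that was pulled down, had 658 mimic reads and 3338 scramble reads. These are 35.3 CPM (Poisson 95% interval 32.7 to 38.1) and 178 CPM (172 to 184). The mimic library was thus lower by 5.05-fold, a log2 ratio of -2.34 (95% interval -2.46 to -2.21). Of the 12186 genes tested, 25 had a lower ratio. Among the 4657 genes with at least 1000 scramble reads, 2 had a ratio this low, Eif2c2 included. The 5th percentile of those genes was -0.63. That set was picked on scramble reads alone, and Eif2c2, with 658 mimic reads, entered it through the library where it was higher. Its place in the set is a description and no separate support.

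Eif2c3 had 122 mimic reads and 313 scramble reads, or 6.55 and 16.7 CPM. Its log2 ratio was -1.35 (95% interval -1.67 to -1.05), and 170 genes were lower. It had the fewest reads of the 10 members and the widest interval, which did not reach that of Eif2c2.

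Eif2c1 and Eif2c4 did not share this difference. Eif2c1 had 4518 and 5263 reads, or 243 and 281 CPM, with a log2 ratio of -0.21 (95% interval -0.27 to -0.16). Eif2c4 had 749 and 659 reads, or 40.2 and 35.2 CPM, with a log2 ratio of 0.19 (95% interval 0.04 to 0.34). Eif2c1 was 1.16-fold lower and Eif2c4 1.14-fold higher in the mimic library, so the 4 Argonautes spread over more than 2 log2 units.

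The make-up of the family's reads differed between the libraries. Eif2c2 gave 34.9% of the 9573 Argonaute reads in the scramble library (exact Clopper-Pearson 95% interval 33.9 to 35.8%) and 10.9% of 6047 in the mimic library (10.1 to 11.7%). Eif2c1 gave 55.0% of the Argonaute reads in the scramble library and 74.7% in the mimic library. Eif2c4 gave 6.88% in the scramble and 12.4% in the mimic library, where it stood above Eif2c2. All 4 together were at 511 CPM in the scramble and 325 CPM in the mimic library, a log2 ratio of -0.66 (95% interval -0.70 to -0.61). Without Eif2c2 the sum of the other Argonautes differed by -0.20 (95% interval -0.26 to -0.15), so most of the family's difference lay in 1 gene.

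**Figure D2:**
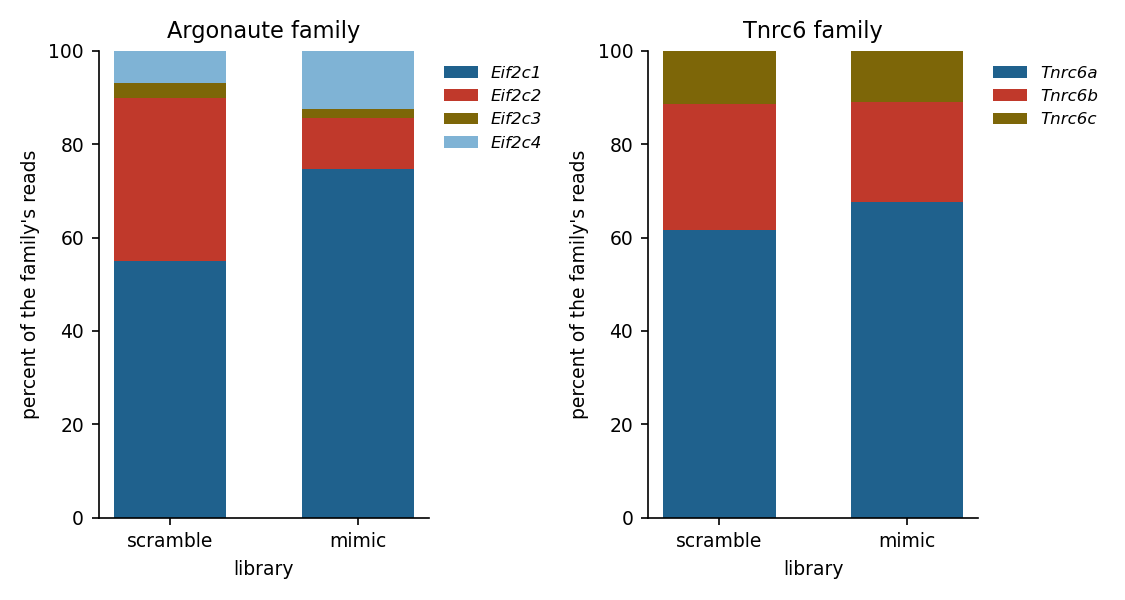
Stacked bars give the percent of a family's reads (vertical axis) on each gene in the scramble and mimic libraries, for the 4 Argonautes (left) and the 3 Tnrc6 genes (right), 1 library each. The Eif2c2 block is 34.9% in the scramble and 10.9% in the mimic library, and the Tnrc6a block 61.5% and 67.7%. Reads are not divided by transcript length.

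Reads that align to more than 1 place are not in the gene counts, which can touch related genes. The coding regions of the Argonautes were 73.2 to 76.8% identical in base sequence. Yet few 50-base windows were shared: 121 between Eif2c1 and Eif2c3, 4 between Eif2c1 and Eif2c2, and 0 with Eif2c4. Of the 13751 windows of Eif2c2, 484 (3.52%) also occurred in a transcript of another gene, most of them in Gm6088 and, on the opposite strand, in Chrac1. Chrac1 shares 219 exonic bases with Eif2c2 and had 778 mimic and 568 scramble reads. Counts of the 4 genes are uncertain to the extent of these stretches. The read length is not given in the sources used here.

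The 3 members that act in making miRNAs, Dgcr8, Xpo5 and Dicer1, were lower in the mimic library by 1.21- to 1.37-fold. Dicer1, however, came out at 0.09 once transcript length and GC content were fitted. Dicer1 had 5886 mimic and 7146 scramble reads, or 316 and 382 CPM, with a log2 ratio of -0.27 (95% interval -0.32 to -0.22). Xpo5 had 802 and 1096 reads, or 43.1 and 58.6 CPM, with a log2 ratio of -0.44 (95% interval -0.58 to -0.31). Dgcr8 had 496 and 682 reads, or 26.6 and 36.4 CPM, with a log2 ratio of -0.45 (95% interval -0.62 to -0.28). None of the 3 differed by 2-fold, and 24.4%, 14.2% and 13.9% of the genes tested had a lower ratio than Dicer1, Xpo5 and Dgcr8.

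The Dgcr8 mRNA is itself known to be cut by Drosha at hairpins in its body. The Mir1306 row, which overlaps a Dgcr8 exon, had 0 reads in both libraries. Trmt2a, on the opposite strand, shares 825 exonic bases (10.7%) with Dgcr8 and had 708 mimic and 676 scramble reads. Whether the counting used strand is not given in the sources used here, so reads of the 2 genes in that stretch cannot be told apart.

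The Tnrc6 genes took far more reads than the Argonautes they partner, 1427 CPM in the mimic and 1434 CPM in the scramble library in sum. The log2 ratio of that sum was -0.01 (95% interval -0.03 to 0.02). Tnrc6a had 17997 mimic and 16515 scramble reads, or 966 and 882 CPM, with a log2 ratio of 0.13 (95% interval 0.10 to 0.16). It is the member with the full miR-471-5p match in its 3′-UTR, and 61.2% of the genes tested had a lower ratio. Tnrc6b had 5692 and 7255 reads, or 306 and 388 CPM, with a log2 ratio of -0.34 (95% interval -0.39 to -0.29). Tnrc6c had 2902 and 3072 reads, or 156 and 164 CPM, and its log2 ratio of -0.08 had an interval (-0.15 to -0.00159) that barely left out 0.

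Levels of different genes can be compared only per length. Per kilobase of the longest annotated transcript, Tnrc6a was the highest of the 10 in both libraries, at 108 CPM per kb in the scramble and 118 in the mimic library. Eif2c1 and Dicer1 followed, at 38.9 and 38.8 in the scramble and 33.6 and 32.1 in the mimic library. In the scramble library the level of each lay inside the counting interval of the other. In the mimic library their counting intervals, 32.6 to 34.6 for Eif2c1 and 31.3 to 32.9 for Dicer1, overlapped only at their ends. Such overlap does not show equal levels, and the difference between Eif2c1 and Dicer1 was not tested. Next came Tnrc6b at 22.4 and 17.6 CPM per kb, then Tnrc6c at 14.2 and 13.4. With the transcript of its longest coding region Tnrc6c was at 18.6 and 17.6, and in the mimic library its interval then overlapped that of Tnrc6b.

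In the scramble library Eif2c2 was the sixth at 12.9 CPM per kb, above Xpo5 (11.5), Dgcr8 (8.43), Eif2c4 (5.39) and Eif2c3 (1.07). In the mimic library it was the ninth at 2.56, below Xpo5 (8.47), Dgcr8 (6.16) and Eif2c4 (6.15), with only Eif2c3 (0.42) lower. Dgcr8 and Eif2c4 did not differ beyond their counting intervals there. With the shorter RefSeq end of Eif2c2 its level was 22.2 CPM per kb in the scramble and 4.40 in the mimic library, the fifth and again the ninth.

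**Figure D3:**
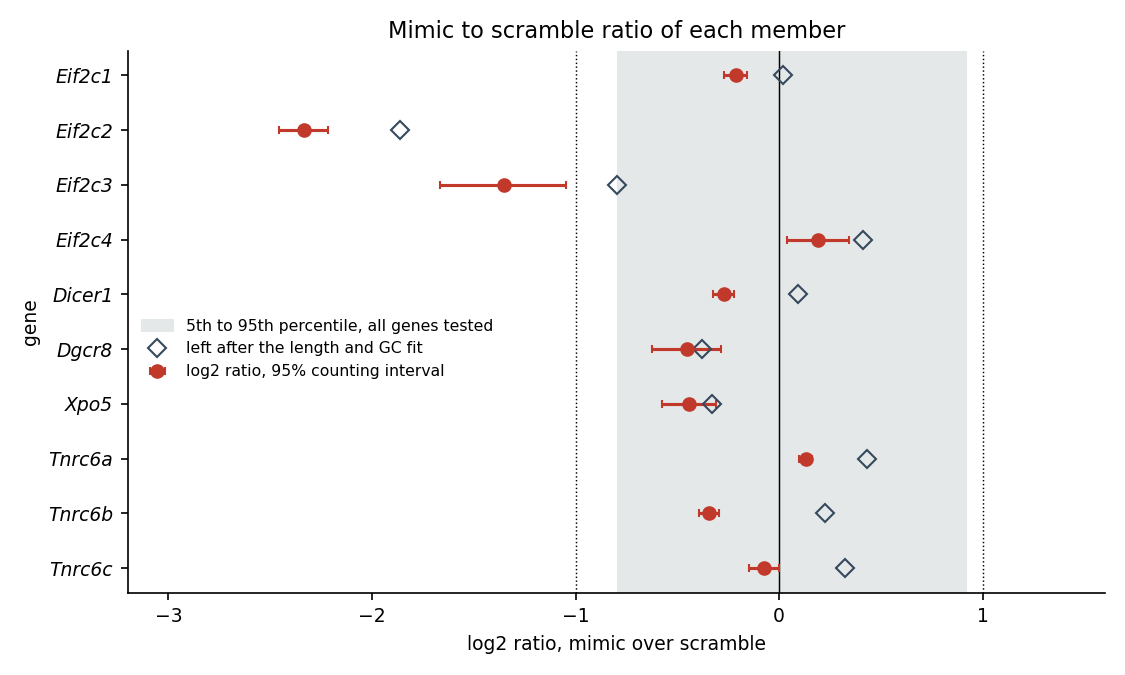
Red points give the log2 ratio of mimic to scramble for each member with its 95% counting interval, open diamonds what is left of it after the fit on transcript length and GC content, and the grey band the 5th to 95th percentile of all genes tested (-0.79 to 0.92). Dotted lines mark 2-fold. Eif2c2 and Eif2c3 lie left of the band as measured, and the diamonds of Eif2c1, Dicer1, Tnrc6b and Tnrc6c lie on the other side of 0 from their points.

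Transcript length moved with the ratio over all genes, and most members are long. In the 10% of genes with the shortest transcripts the median log2 ratio was 0.44, and in the 10% with the longest, from 6840 bases, it was -0.24. Of the 10 members 7 were in that longest group, with Eif2c4, Xpo5 and Dgcr8 shorter. In it 9.59% of 1210 genes were lower by at least 2-fold, and among the 39 genes with a 3′-UTR of at least 10000 bases 28.2% were. Eif2c2 had the lowest ratio of those 39, and 14 of the 1210 were at or below it. Eif2c3, with a 3′-UTR of 12742 bases, was less apart, with 6 of the 39 genes at or below it.

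A fit of the log2 ratio on transcript length and GC content over 12081 genes explained 14.5% of the variance. It left -1.86 of the ratio of Eif2c2, lower than all but 0.439% of genes, and -2.05 with the shorter RefSeq end. It left -0.80 for Eif2c3, past which 4.35% of genes lay, so that gene no longer reached 2-fold. Dgcr8 and Xpo5 kept -0.38 and -0.33. The other members came out at or above 0: Eif2c1 at 0.02, Dicer1 at 0.09, Tnrc6b at 0.23, Tnrc6c at 0.32, Eif2c4 at 0.41 and Tnrc6a at 0.43. The ratios of Eif2c1, Dicer1, Tnrc6b and Tnrc6c thus changed sign with the fit, and that of Eif2c2 became smaller but stayed past 2-fold.

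**Figure D4:**
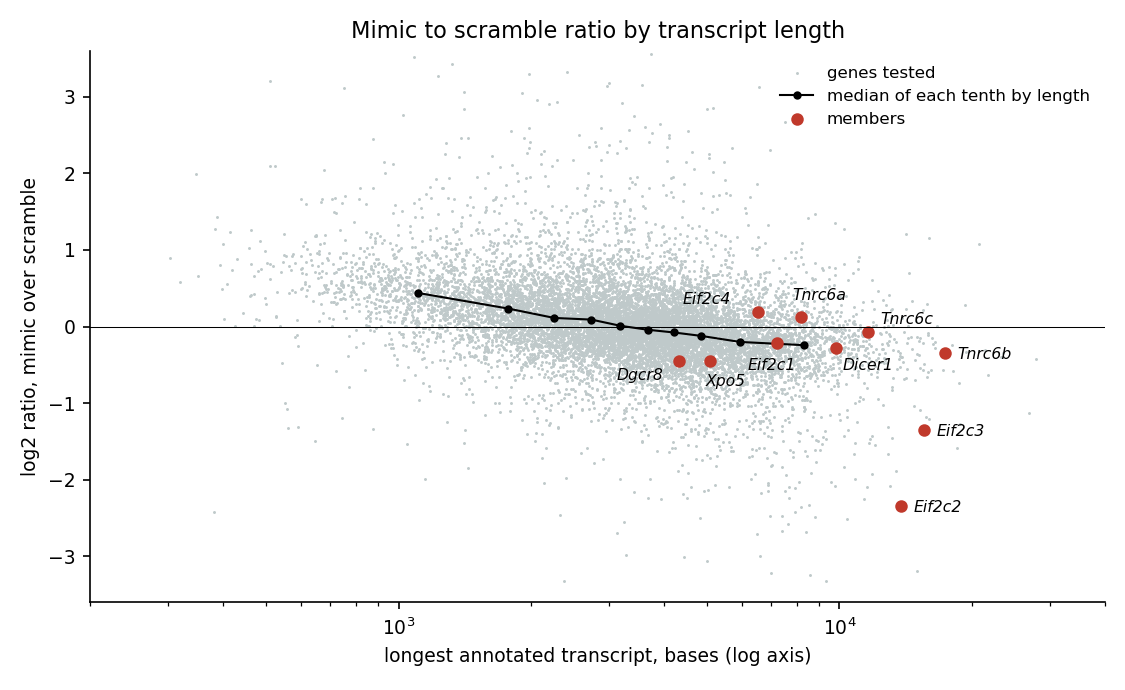
Log2 ratio of mimic to scramble (vertical axis) against the longest annotated transcript (log axis) for 12081 genes tested (grey, 23 outside the axes), with medians over 10 equal groups by length (black line) and the 10 members (red). The median falls from 0.44 to -0.24 with length, and Eif2c2 lies at -2.34.

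The wider pathway was read from lists of 63 other genes, of which 61 had at least 20 counts. Of these, 17 had a log2 ratio above 0 and 44 below, with a median of -0.14. The interval lay above 0 in 13 and below 0 in 34. Over all 12186 genes tested 5949 were below 0, and 32.4% had an interval above 0 and 31.9% below. After the length and GC fit 41 of the 61 were below 0, with a median of -0.11. Over the 12081 genes fitted 6316 were below 0, with a median of -0.02. Of the 61, 3 were lower by at least 2-fold and 0 higher, beside 2.91% and 4.19% of all genes tested. The 3 were Cnot6, Xrn1 and Zcchc6. Their transcripts are of 5736, 10256 and 5869 bases, and the length and GC fit left -1.41, -1.02 and -0.84 of their ratios, so Zcchc6 no longer reached 2-fold.

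All 12 deadenylation genes were below 0, with a median of -0.11, and the interval lay below 0 in 6 of them. After the length and GC fit 7 of the 12 were below 0, and their median was -0.13. Cnot6, a deadenylase subunit of the CCR4-NOT complex that Tnrc6 proteins recruit, had 855 mimic and 2652 scramble reads, a log2 ratio of -1.63 (95% interval -1.74 to -1.51). Cnot7, another deadenylase of the complex, was the highest at -0.02, with 1525 and 1555 reads. Of the 14 decapping and decay genes 6 were below 0, with a median of 0.04. Xrn1, the exonuclease that degrades decapped mRNA, had 93 and 252 reads and a log2 ratio of -1.43 (95% interval -1.79 to -1.08). Lsm1, part of the ring that binds shortened tails, was the highest at 0.60, with 203 and 135 reads.

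Of the 10 tested genes for miRNA tailing and turnover 8 were below 0. Zcchc6, which adds uridines to miRNA precursors and mRNAs, had 526 and 1084 reads and a log2 ratio of -1.04 (95% interval -1.19 to -0.88), an interval that includes values short of 2-fold. Lin28b, which blocks let-7 maturation, was at 0.80 on 33 and 19 reads, with an interval from -0.05 to 1.70, so no difference was detectable at this depth. Lin28a had 0 reads in both libraries, which allows up to 0.161 CPM.

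The lists nearest to the members in function held no gene past 2-fold. Of the 5 genes for nuclear processing and export 4 were below 0, from -0.26 in Ddx5, a helicase partner of Drosha, to 0.20 in Srrt, a nuclear factor in miRNA processing. Of the Dicer partners, Tarbp2 was at -0.21 and Prkra at 0.31. Of the 8 chaperones that help load Argonautes 6 were below 0, from -0.41 in Hspa8 to 0.89 in Ptges3, the co-chaperone p23, which had 1080 mimic and 587 scramble reads. Of the 10 Argonaute and GW182 partners 7 were below 0, from -0.46 in Fam120a to 0.68 in Wtip, a LIM-domain protein.

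**Figure D5:**
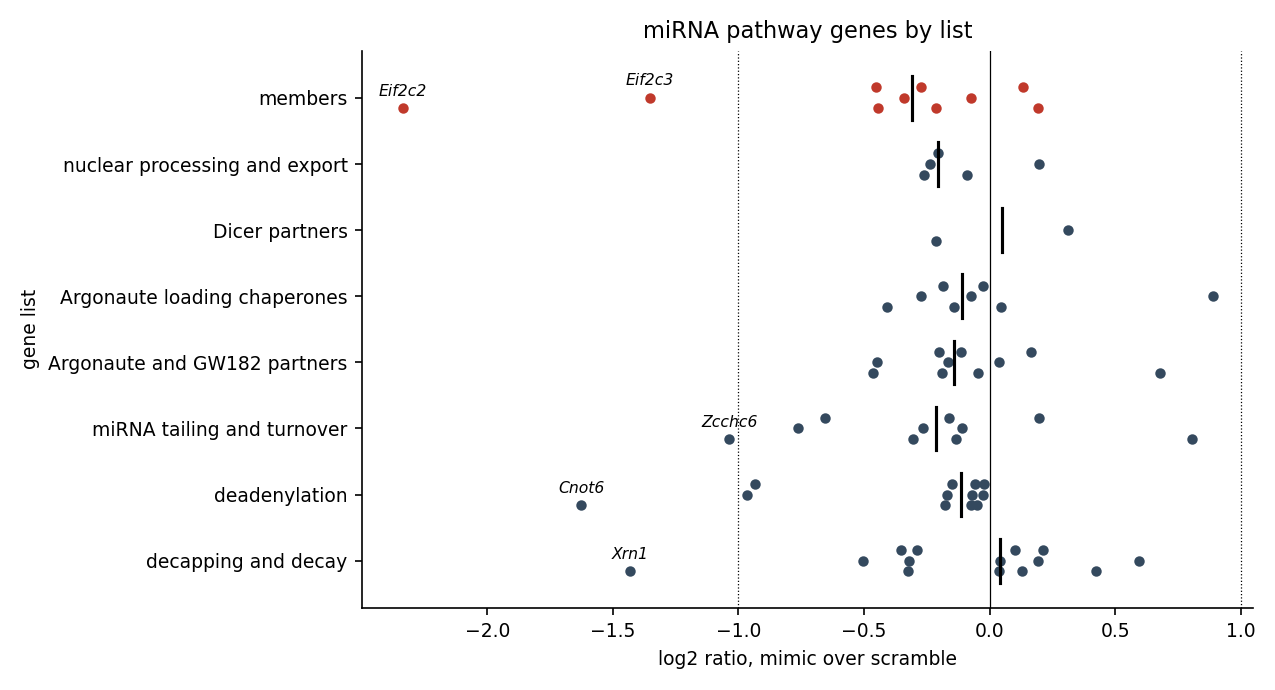
Each point is the log2 ratio of mimic to scramble of 1 gene, for the 10 members (red) and the 61 tested genes of the wider lists (dark), with list medians as black bars and 2-fold as dotted lines. The 5 genes past 2-fold are named, all on the lower side, with Eif2c2 the farthest.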

How the data were processed

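RNA bound by Ago2 was sequenced from TM4 cells, 1 library per condition. The deposited values are unnormalized read counts for each gene symbol, with 5 summary rows for reads not assigned to 1 gene. The submitters' processing notes name CASAVA 1.8.2, TopHat2 2.0.8b, HTSeq and mm9. The annotation, strand setting and read length are not given in the sources used here. Summary rows took 47.3% (mimic) and 44.1% (scramble) of entries, mostly alignments to more than 1 place, and stayed out of library sizes.

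Ratios used CPM of gene reads. With 1 library on each side there was no spread to fit, so the planned edgeR quasi-likelihood test was not run, and a 2-fold threshold and counting intervals replaced a test. Scaling by TMM (edgeR 4.0.16), by DESeq2 1.42.0 size factors or by all entries, minimum counts of 1 and 200 in place of 20, and a log2 threshold of 0.5 were alternatives. Lengths and UTRs came from GENCODE M21 (GRCm38), a build other than the authors', so they were joined by symbol: 20284 rows matched directly and 1907 by a RefSeq synonym. Matches were searched on the mRNA strand, and shared windows on both strands. Scripts (Python 3.11.15) were tested on simulated data. All members were named, and of each wider list the highest and lowest gene and any past 2-fold. Gm6088, Chrac1 and Trmt2a were named for overlaps, and the tested markers after their values were seen. The members and lists were chosen with earlier results of these data known.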

Additional observations from a re-analysis of the deposited data

Results flagged for a closer look

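Reads outside the gene rows took a larger share of entries in the mimic library. Alignments to more than 1 place were 39.8% of entries, against 35.6% in the scramble library, and reads overlapping more than 1 gene were 0.653%, against 0.585%. They cannot be traced to genes from the counts, and their part in the results was not tested.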

How the results depend on the processing

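The log2 ratios of Eif2c2, Eif2c3, Eif2c4, Dgcr8, Xpo5 and Tnrc6a kept their sign under every scaling and after the length and GC fit. That fit turned the sign of Eif2c1 (0.0213), Dicer1 (0.0935), Tnrc6b (0.23), Tnrc6c (0.32) and the median of the members (0.0574). TMM and DESeq2 size factors shifted every ratio by less than 0.01, and scaling by all entries by -0.09. With all entries 1 member in place of 2 had an interval above 0, and of the wider lists 5 genes in place of 3 were lower by at least 2-fold, with 8 in place of 13 intervals above 0. At a log2 threshold of 0.5 the wider lists had 8 lower and 4 higher genes. Over all genes the 355 lower and 511 higher genes became 1376 and 1908 with no filter, 186 and 238 with at least 200 counts, and 1453 and 1852 at a threshold of 0.5. The levels per kb of Tnrc6c with another transcript and of Eif2c2 with its RefSeq end (chosen after seeing the data) moved as given above. With 6-base matches 4 members had one for miR-471-5p in the 3′-UTR in place of 1, against 6.77% and 1.56% of the genes. For let-7a-5p 8 of the 10 had one in place of 2, against 27.2% and 10.8% of the genes. Of 164 alternative values over 47 results, 133 stayed within the limits set. No paired analysis was possible because each condition had 1 library, which is also why no library could be left out. Depth limited Eif2c3 and Xrn1 most among the genes past 2-fold.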
